A study of Mus musculus with 6 samples.

Results

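The manchette, intraflagellar transport and BBSome genes considered here are 35 genes listed by symbol, not picked by a cutoff on their values. All 35 were found among the 34144 gene rows of the series, and 0 were absent. They comprise 10 manchette genes, 4 genes of the intraflagellar transport complex A (IFT-A), 11 of complex B (IFT-B), 2 of the dynein-2 motor, 6 BBSome subunits and 2 chaperonin-like genes of BBSome assembly. RNA was measured in the seminiferous tubules of decapsulated testes from 3 Nsun7-/- mice and 3 wild-type mice, each of the strain C57Bl/6J and 3 months old, with 1 library per mouse (KO1 to KO3 and WT1 to WT3). Nsun7 is a member of a family of RNA methyltransferases and is described in the title of the series as an RNA-binding protein under which transcripts of elongated spermatids are less stable. How the Nsun7 allele was made is not described in the labels.

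The manchette is a temporary sleeve of microtubules around the nucleus of the elongating spermatid, along which cargo moves towards the growing tail. Intraflagellar transport moves protein trains along the axoneme: IFT-B travels outwards with kinesin-2, and IFT-A returns with dynein-2. The BBSome is an adaptor complex that links membrane proteins to these trains, and in mice the loss of several IFT or BBSome proteins leaves sperm without normal tails.

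None of the 35 genes differed between the genotypes at a Benjamini-Hochberg adjusted p of 0.05 in edgeR's quasi-likelihood test, in which all 35 were among the 21002 genes tested. Of all tested genes, 119 (0.567%) passed. A single member of the 35 had an unadjusted p under 0.05 in the edgeR test, against 1763 of the 21002 tested genes. DESeq2 and limma voom also called 0 of the 35, as did edgeR without WT1 or without KO3. The median log2 fold change, Nsun7-/- over wild type, was 0.04 over the 35 genes, with a range of -0.26 to 0.72, against a median of 0.02 over all tested genes. For 34 of the 35 genes the 95% interval of the log2 fold change lay within 1 of 0, a 2-fold change, and for 29 it lay within a 1.5-fold change. The exception to the wider bound was Bbs12, the least abundant of the 35. A different picture was given at transcript level by a single gene, Cep131. Its transcript Cep131-202 was estimated at 0 in every wild-type library and held between 15.7% and 35.2% of the gene's counts in the Nsun7-/- libraries. It missed the threshold in edgeR's quasi-likelihood transcript test (adjusted p = 0.159). DESeq2 and a test of how counts divide among transcripts, both chosen after seeing the data, called it.

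The libraries held between 25014898 and 28558865 estimated counts in Nsun7-/- mice and between 23480448 and 26102343 in wild-type mice. Nsun7 itself had 18.0, 17.8 and 25.2 CPM (counts relative to library size, scaled by TMM) in KO1, KO2 and KO3, against 36.6, 35.7 and 37.2 CPM in WT1, WT2 and WT3. It was lower in every Nsun7-/- library (log2 fold change -0.84, SE 0.15, edgeR adjusted p = 0.016). Over all genes, the first principal component (35.5% of the variance) set KO3 at 1 end, with a score of 49.2, and WT1 at the other, with -38.3. WT1 also held 649 counts of Crisp1 and 56 of Adam7, genes of the epididymal epithelium, whereas the other libraries held at most 4 of either. Of the same list Lcn5 and Lcn8 were at 0 in every library, and Defb21 was not highest in WT1, with 2, 9 and 14 counts in KO1, KO2 and KO3 and 5, 4 and 7 counts in WT1, WT2 and WT3. Because the lining of the efferent ducts carries motile cilia that use the same transport genes, markers of multiciliated epithelium were read as well. Its regulators Mcidas and Gmnc had at most 9 counts in any library, while Deup1, Ccno, Cdc20b and Tubb4b of the same list had 245 or more in Nsun7-/- libraries and 244 or more in wild-type libraries. The summed CPM of 9 elongating spermatid markers ran from 6284 to 8553 in Nsun7-/- libraries and from 7017 to 9311 in wild-type libraries, with 0 of 9 passing the test. Their median log2 fold change was -0.25, with 6 of the 9 below 0. The median was -0.14 for 7 pachytene spermatocyte markers, with 7 below 0. For 7 round spermatid markers it was 0.01, with 3 below 0. Summed Leydig cell markers ran from 2291 to 4733 CPM in Nsun7-/- libraries and from 1677 to 2653 CPM in wild-type libraries, with 1 of 6 passing. Summed peritubular myoid markers ran from 388 to 463 CPM in Nsun7-/- libraries and from 479 to 517 CPM in wild-type libraries, with 0 of 5 passing. In bulk tissue, fewer cells of a type and less RNA per cell cannot be told apart, and the part of cell composition in the values below was not tested.

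On the TPM scale, which is per length and so allows levels to be compared between genes, the 35 genes averaged between 0.797 and 1213 TPM over all libraries. Bbs9 was the most abundant, at 1340 ± 273 TPM in Nsun7-/- testes and 1086 ± 464 TPM in wild-type testes (SD, n = 3 each). Ift140 followed at 265 ± 15.9 TPM in Nsun7-/- testes and 222 ± 38.9 TPM in wild-type testes. Iqcn had 250.0 ± 35.6 TPM in Nsun7-/- testes and 220.4 ± 62.3 TPM in wild-type testes, and Rimbp3 had 219.9 ± 26.2 TPM in Nsun7-/- testes and 183 ± 39.2 TPM in wild-type testes. These last 3 did not differ in level beyond their spread. Over both genotypes 10 members averaged more than 100 TPM, the others being Ift172, Ift122, Stk36, Ift22, Ift46 and Meig1. Another 4 averaged under 10 TPM: Ift57 at 7.79, Bbs10 at 4.42, Spef2 at 2.32 and Bbs12 at 0.797 TPM. TPM values of every gene move with Rmrp, the RNA of RNase MRP, which took 0.985% to 1.76% of the counts in Nsun7-/- libraries and 1.55% to 4.85% in wild-type libraries. On the TPM scale Rmrp held 113500 to 175000 TPM in Nsun7-/- libraries and 157200 to 333400 TPM in wild-type libraries. The genotypes are therefore compared on counts from here on, and on TPM only where said.

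**Figure D1:**
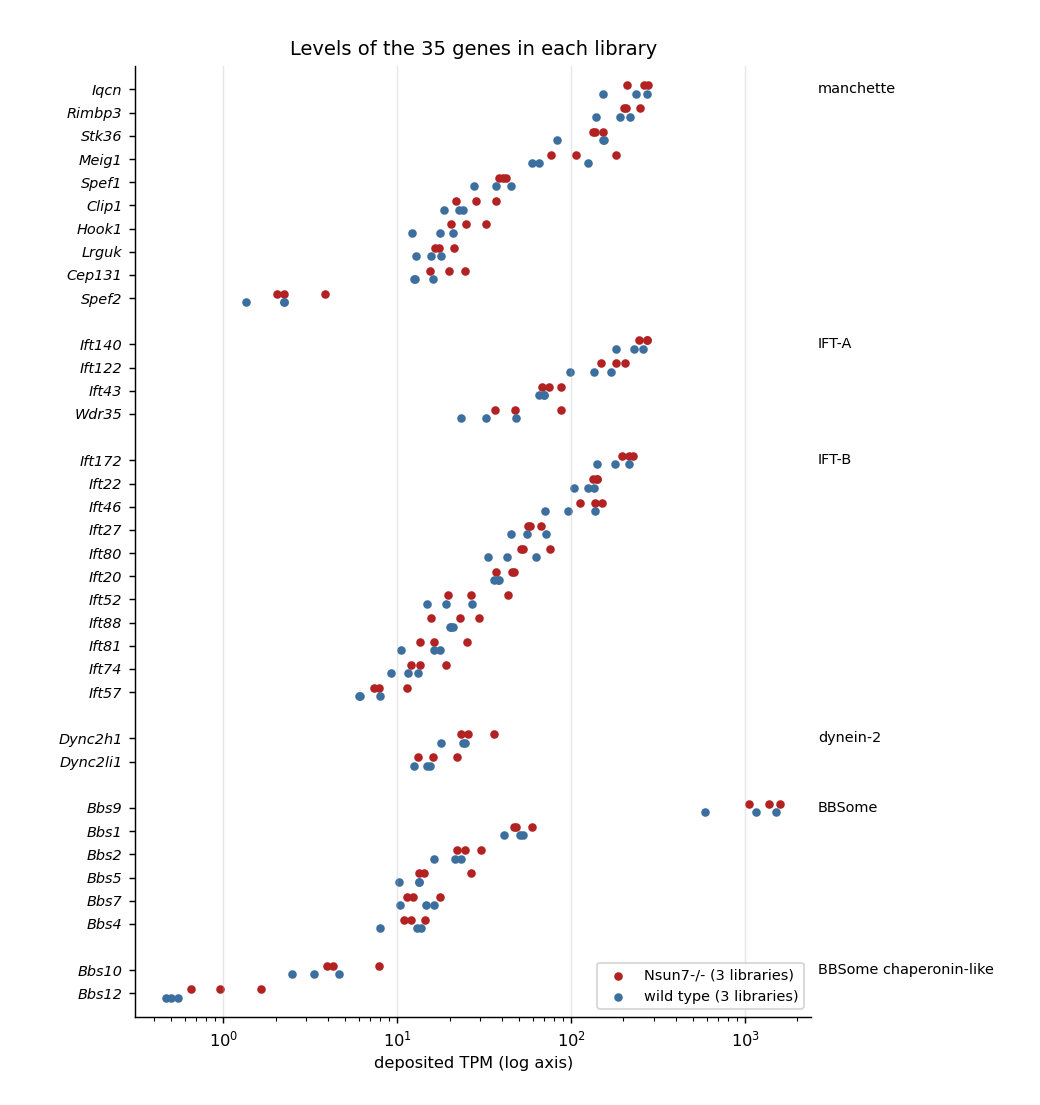
Deposited TPM (log axis) of each of the 35 genes in each library, with Nsun7-/- libraries in red above wild-type libraries in blue; genes are sorted by mean level within each sub-group. Bbs9 lies far above the other BBSome subunits, and Bbs12 is the lowest gene.

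For the 10 manchette genes the median log2 fold change was -0.004, with 5 above 0 and 5 below, and 0 passed the test. Hook1, which ties the manchette to other structures of the spermatid and is disrupted in the azh mouse with abnormal sperm heads, had 37.7, 44.7 and 56.7 CPM in KO1, KO2 and KO3, against 34.4, 37.6 and 42.2 CPM in WT1, WT2 and WT3. KO3 was highest and the genotypes overlapped (log2 fold change 0.28, SE 0.15, edgeR adjusted p = 0.637), and without KO3 the value was 0.11. Stk36, a kinase of the Fused family that mouse motile cilia need for their central pair, had 282.9, 272.5 and 244.2 CPM in the Nsun7-/- libraries and 305.0, 351.7 and 300.5 CPM in the wild-type libraries. Every Nsun7-/- value lay below every wild-type value, but the difference missed the threshold (log2 fold change -0.26, SE 0.12, 95% interval -0.52 to 0.004, edgeR adjusted p = 0.597). On the log2(TPM + 1) scale the sign for Stk36 turned, to 0.17, on which the median of all genes was 0.24.

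Iqcn, a calmodulin-binding protein with IQ motifs and the most abundant manchette gene, had 784, 955 and 763 CPM in the Nsun7-/- libraries and 770, 938 and 968 CPM in the wild-type libraries. The ranges overlapped almost wholly (log2 fold change -0.10, SE 0.14, edgeR adjusted p = 0.841). Rimbp3, which binds Hook1 on the manchette, differed by -0.03 on the log2 scale, and Spef1, a microtubule-bundling protein, by -0.12. Meig1, which brings cargo to the manchette, had the widest spread of the 10, at 28.2, 35.9 and 51.4 CPM in Nsun7-/- libraries and 30.6, 26.6 and 43.1 CPM in wild-type libraries. Its log2 fold change was 0.20 with a 95% interval of -0.33 to 0.74. The other 4 lay between -0.09 and 0.09: Lrguk at -0.09, Cep131, a protein of centriolar satellites, at 0.02, Spef2, an adaptor of the central pair, at 0.06, and Clip1, which tracks microtubule plus ends, at 0.09.

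The median log2 fold change of the 4 IFT-A genes was 0.05, with 3 above 0, 1 below and 0 passing. Wdr35, a subunit also called IFT121, had 124.5, 139.7 and 195.2 CPM in KO1, KO2 and KO3, against 109.0, 118.3 and 137.9 CPM in WT1, WT2 and WT3. KO3 was well above the rest, while KO1 lay within the wild-type range (log2 fold change 0.33, SE 0.16, edgeR adjusted p = 0.606), and without KO3 the value was 0.11. Ift43, a small subunit, had 35.2, 29.7 and 32.8 CPM in the Nsun7-/- libraries and 44.7, 36.8 and 31.4 CPM in the wild-type libraries. WT1 was highest and the genotypes overlapped (log2 fold change -0.21, SE 0.14, edgeR adjusted p = 0.678). Ift140, a core subunit needed for return transport, had 978, 978 and 862 CPM in the Nsun7-/- libraries and 928, 940.2 and 944 CPM in the wild-type libraries. Its log2 fold change was 0.003 with a 95% interval of -0.26 to 0.27. Ift122, another core subunit, differed by 0.09 on the log2 scale.

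Log2 fold changes of the 11 IFT-B genes ran from -0.23 to 0.13 with a median of 0.04, 6 above 0, 5 below and 0 passing. Ift27, a small GTPase that joins IFT-B to BBSome traffic, had 39.5, 43.0 and 31.2 CPM in the Nsun7-/- libraries and 44.3, 42.1 and 46.9 CPM in the wild-type libraries. KO3 was lowest and KO2 lay within the wild-type range (log2 fold change -0.23, SE 0.14, edgeR adjusted p = 0.654), and without KO3 the value was -0.11. Ift80 had 62.6, 63.4 and 77.2 CPM in the Nsun7-/- libraries and 58.6, 62.2 and 65.1 CPM in the wild-type libraries. It was highest in KO3 (log2 fold change 0.13, SE 0.12, edgeR adjusted p = 0.752), and without KO3 the value was 0.02.

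Ift172, the largest IFT-B protein and the most abundant of these genes, had 477, 488 and 468 CPM in the Nsun7-/- libraries and 423, 434 and 482 CPM in the wild-type libraries. WT3 lay among the Nsun7-/- values (log2 fold change 0.10, SE 0.12, edgeR adjusted p = 0.804). The tubulin-binding pair Ift74 and Ift81 differed by 0.04 and 0.09 on the log2 scale. The core subunits Ift46, Ift52 and Ift88 differed by 0.05, 0.12 and -0.11. Ift22, a small GTPase-like subunit, and Ift57 each differed by -0.01, and Ift20, which also sits at the Golgi, by -0.13.

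The 2 dynein-2 genes went opposite ways without passing. Dync2h1, the heavy chain that pulls trains back to the cell body, had 198.5, 209.5 and 274.3 CPM in KO1, KO2 and KO3, against 193.7, 210.0 and 215.1 CPM in WT1, WT2 and WT3. KO3 alone lay above the wild-type range (log2 fold change 0.14, SE 0.14, edgeR adjusted p = 0.757), and without KO3 the value was -0.02. Dync2li1, the light intermediate chain, had 13.2, 14.4 and 16.9 CPM in the Nsun7-/- libraries and 16.8, 16.2 and 14.1 CPM in the wild-type libraries (log2 fold change -0.08, SE 0.14, edgeR adjusted p = 0.870).

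Over the 6 BBSome subunits the median log2 fold change was 0.05, with 4 above 0, 2 below and 0 passing. Bbs1, which recruits the complex to the membrane through Arl6, had 78.8, 82.2 and 82.7 CPM in the Nsun7-/- libraries and 92.4, 88.6 and 88.4 CPM in the wild-type libraries. The genotypes did not overlap, but the difference was small and missed the threshold (log2 fold change -0.14, SE 0.11, edgeR adjusted p = 0.697). On the log2(TPM + 1) scale the sign for Bbs1 was the other, at 0.10, where the median of all genes was 0.24. On that scale without Rmrp, Bbs1 was at -0.08. Stk36 and Bbs1 were the 2 of 35 members whose genotypes did not overlap, both lower in Nsun7-/- libraries, whereas 3009 of all tested genes (14.3%) showed no overlap in either direction.

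Bbs5 had 7.56, 8.40 and 13.4 CPM in the Nsun7-/- libraries and 8.34, 8.69 and 8.24 CPM in the wild-type libraries. KO3 was far above the other 5 libraries, which lay close together (log2 fold change 0.22, SE 0.20, edgeR adjusted p = 0.745), and without KO3 the value was -0.08. Bbs9 had 860, 1217 and 901 CPM in the Nsun7-/- libraries and 673, 1002 and 1177 CPM in the wild-type libraries. Both genotypes spread widely (log2 fold change 0.06, SE 0.20, edgeR adjusted p = 0.937), and without WT1 the value was -0.14. Bbs2, Bbs4 and Bbs7 differed by -0.001, 0.07 and 0.03 on the log2 scale.

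The chaperonin-like proteins Bbs10 and Bbs12 help to fold and assemble the BBSome. Bbs12, the gene with the largest log2 fold change of the 35, rested on 31, 44 and 76 counts in KO1, KO2 and KO3 and on 29, 29 and 22 counts in WT1, WT2 and WT3. As CPM these were 1.25, 1.65 and 2.46 in the Nsun7-/- libraries and 1.31, 1.12 and 0.848 in the wild-type libraries. KO3 was highest, and KO1 lay just under WT1. The log2 fold change was 0.72 (SE 0.31, 95% interval 0.06 to 1.38, unadjusted p = 0.0348, edgeR adjusted p = 0.567), and without KO3 it was 0.41 (edgeR adjusted p = 0.831). Bbs10 had 8.93, 9.11 and 14.3 CPM in the Nsun7-/- libraries and 7.93, 8.38 and 10.2 CPM in the wild-type libraries, again with KO3 highest (log2 fold change 0.29, SE 0.19, edgeR adjusted p = 0.675), and without KO3 the value was 0.02.

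**Figure D2:**
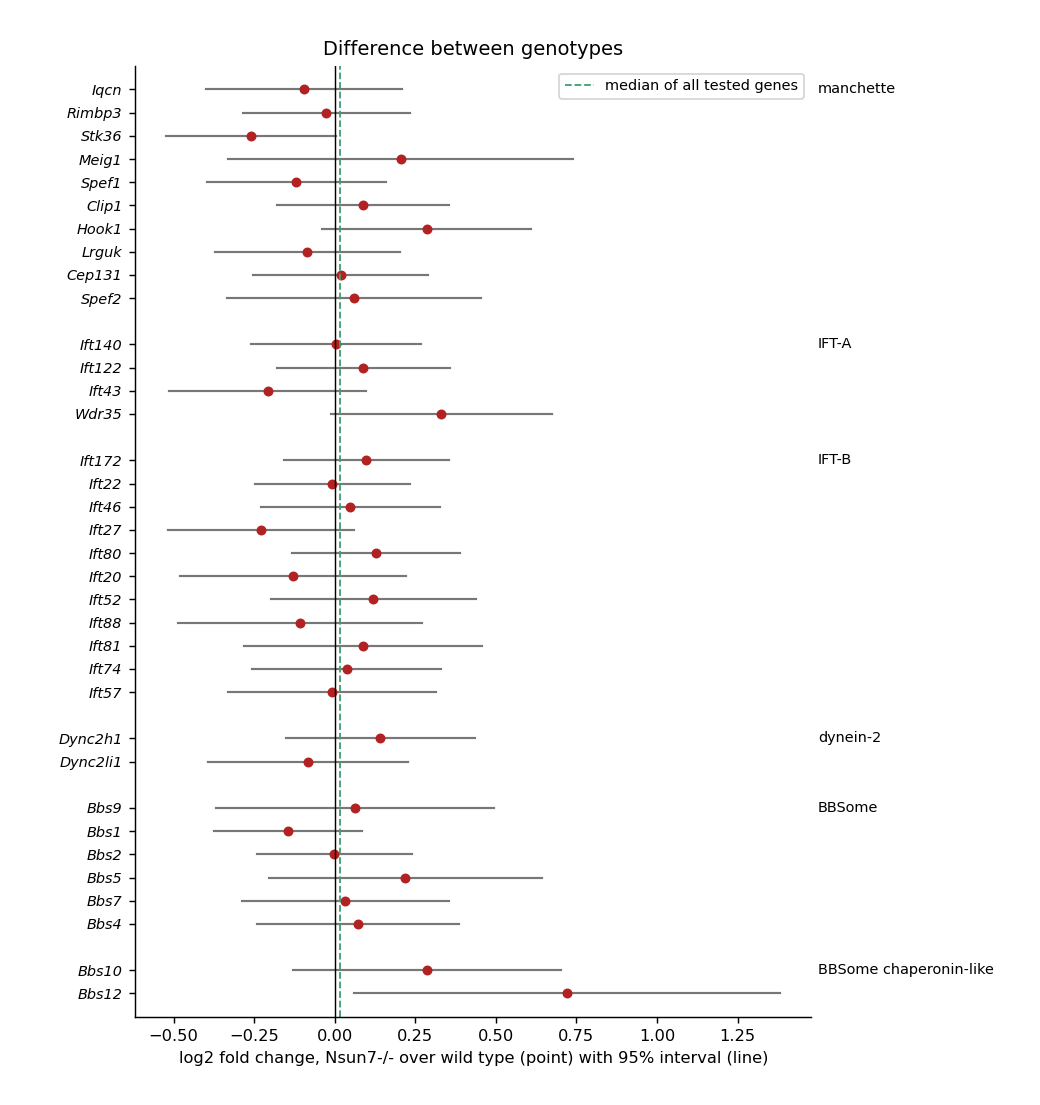
Log2 fold change of estimated counts, Nsun7-/- over wild type, for each of the 35 genes (point) with its 95% interval (line), in the same gene order as the plot of levels. The points lie between -0.26 and 0.72, and the interval of Bbs12 is the one that extends beyond 1.

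Set side by side, the sub-group medians of the log2 fold change were -0.004 for the manchette, 0.05 for IFT-A, 0.04 for IFT-B, 0.03 for dynein-2 and 0.05 for the BBSome, beside 0.02 for all tested genes. The chaperonin-like pair stood at 0.50, from 2 genes of low level, and at 0.22 without KO3. These values are descriptions, and no test of the sub-groups against each other was made. Part of the spread followed a single mouse. KO3 was the highest library for 18 of the 35 genes (51.4%), against 41.0% of 39 other genes of these pathways and 31.2% of all tested genes. Relative to each gene's mean over the 6 libraries on the log2 CPM scale, the median of the 35 genes was -0.11 in KO1, -0.02 in KO2 and 0.15 in KO3, against -0.06 in WT1, -0.04 in WT2 and 0.04 in WT3. Without KO3 the median log2 fold change over the 35 genes was -0.04. That of IFT-B was -0.06, that of dynein-2 -0.11 and that of the BBSome -0.06, and each of these had its sign turned. The medians of IFT-A and the manchette kept their signs without KO3, at 0.08 and -0.04. Other single libraries turned signs as well: the BBSome median was -0.04 without WT1, the IFT-B median -0.01 without WT2 and the manchette median 0.02 without KO1.

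**Figure D3:**
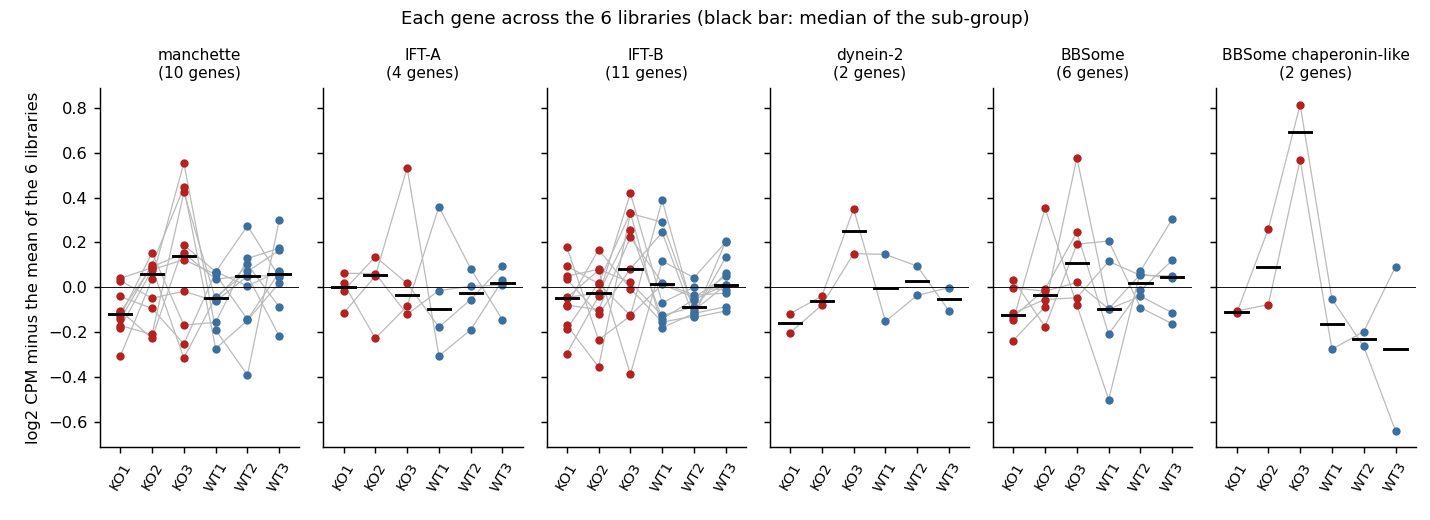
Log2 CPM of each gene minus its mean over the 6 libraries (y axis), by library (x axis) and sub-group (panels), with Nsun7-/- libraries in red, wild-type libraries in blue, a grey line per gene and a black bar at the sub-group's median. KO3 carries the highest point of each of the 6 panels, from 0.35 for Dync2h1 to 0.81 for Bbs12.

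A further 39 genes of the same pathways that are not among the 35 were read as context, and 0 of the 39 passed the test, with a median log2 fold change of -0.05. The 4 other IFT-A genes, counting its adaptor Tulp3, had a median of -0.07, with Wdr19 at -0.11 (edgeR adjusted p = 0.784) and Tulp3 at -0.09 (adjusted p = 0.852). The 8 other IFT-B genes had a median of -0.08, with Ttc26 at 0.12 (edgeR adjusted p = 0.788) and Ttc30a1 at -0.11 (adjusted p = 0.802). The 8 other motor genes, kinesin-2 and dynein-2 subunits, had a median of -0.06. Among them Dync2i2, a dynein-2 intermediate chain, stood at -0.30 (edgeR adjusted p = 0.626), and Kif3b, a kinesin-2 motor subunit, at 0.18 (adjusted p = 0.680). The 5 other BBSome genes had a median of 0.11, with Lztfl1 at -0.16 (edgeR adjusted p = 0.725) and Arl6, the GTPase that recruits the BBSome, at 0.15 (adjusted p = 0.741). The 14 other manchette genes had a median of -0.01, with Rnf19a at 0.27 (edgeR adjusted p = 0.673).

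The 35 genes have 230 transcripts in the per-library tables, of which 157 had enough counts to be tested. The leading transcript held at least 90% of the gene's counts for 9 of the 35 genes, among them Rimbp3 and Iqcn, which have 1 transcript each. Bbs9 was the opposite case. Its largest shares were on Bbs9-203, annotated as subject to nonsense-mediated decay and 1640 bases long, with 42.0% ± 2.85 of the gene's counts in Nsun7-/- testes and 39.3% ± 4.89 in wild-type testes (SD, n = 3 each), and on Bbs9-206, of 638 bases, with 29.4% ± 1.35 in Nsun7-/- testes and 31.1% ± 1.58 in wild-type testes. The 4 Bbs9 transcripts of at least 3000 bases together held 27.6% of the counts in Nsun7-/- testes and 28.6% in wild-type testes, and per length 8.36% of the gene's TPM in Nsun7-/- testes and 8.66% in wild-type testes. The high TPM of Bbs9 therefore came mainly from short transcripts, in both genotypes. Bbs10 also had a large share on a transcript annotated as a retained intron, Bbs10-202, with 37.3%, 58.3% and 65.6% in KO1, KO2 and KO3 and 68.0%, 69.5% and 64.0% in WT1, WT2 and WT3.

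At transcript level 0 of the 157 tested transcripts passed edgeR's quasi-likelihood test after adjustment, against 16 of 58773 (0.0272%) over all genes. At an unadjusted p under 0.05 there were 8 of the 157, and the share over all genes at that threshold is not given here. A test of how a gene's counts divide among its transcripts (edgeR's diffSpliceDGE, chosen after the transcript estimates had been seen) called 1 of 153 transcripts in 31 of the genes, against 129 of 49428 (0.261%) over all genes. That transcript was Cep131-202. DESeq2 on the same transcript estimates called 2 of 177, Cep131-202 and Cep131-201, against 416 of 71351 (0.583%) over all genes.

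Cep131 lies on the minus strand of chromosome 11. Its 3 full-length transcripts in GENCODE M21 (GRCm38) have 26 exons each and differ at the join of exons 9 and 10 alone, so the sequences around that join are shown. Exon 9 of Cep131-201 is chr11:120073128-120073244 and its exon 10 is chr11:120072838-120072976. In Cep131-202 exon 9 is chr11:120073123-120073244 and exon 10 is chr11:120072838-120072974, which makes the transcript 3581 bases long against 3578 for Cep131-201. Capitals mark the bases at which the 3 differ, counted from base 1200 of the transcript:
Cep131-202: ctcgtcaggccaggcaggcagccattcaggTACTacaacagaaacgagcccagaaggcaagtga
Cep131-201: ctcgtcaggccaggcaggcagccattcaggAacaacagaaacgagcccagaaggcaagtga
Cep131-207: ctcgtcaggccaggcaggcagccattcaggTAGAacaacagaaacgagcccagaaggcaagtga

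Cep131-202 had 142.2, 385.5 and 491.4 estimated counts in KO1, KO2 and KO3, against 0 in each of WT1, WT2 and WT3. As a share of the gene these were 15.7%, 33.1% and 35.2% in the Nsun7-/- libraries and 0 in the wild-type libraries. The estimate of 0 sets no close upper limit on the wild-type share, since only reads over the join tell the transcripts apart. For the same reason no lowest fold between the genotypes is given. Cep131-201 had 741, 759 and 849 estimated counts in the Nsun7-/- libraries and 937, 962 and 1123 in the wild-type libraries, and Cep131-207 was at or near 0 throughout.

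The full-length transcripts together had 1123 ± 229 counts in Nsun7-/- testes and 1008 ± 101 in wild-type testes (SD, n = 3 each), and the gene's log2 fold change was 0.02 (SE 0.13, edgeR adjusted p = 0.974). The adjusted p for Cep131-202 was 7.37e-05 in edgeR's diffSpliceDGE, 0.159 in edgeR's quasi-likelihood transcript test and 5.10e-13 in DESeq2. In diffSpliceDGE it passed without any 1 of the 6 libraries, with a largest adjusted p of 2.94e-03. Because the transcripts differ by these few bases, the estimates rest on the reads that cover the join, and the reads themselves are not analysed here.

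**Figure D4:**
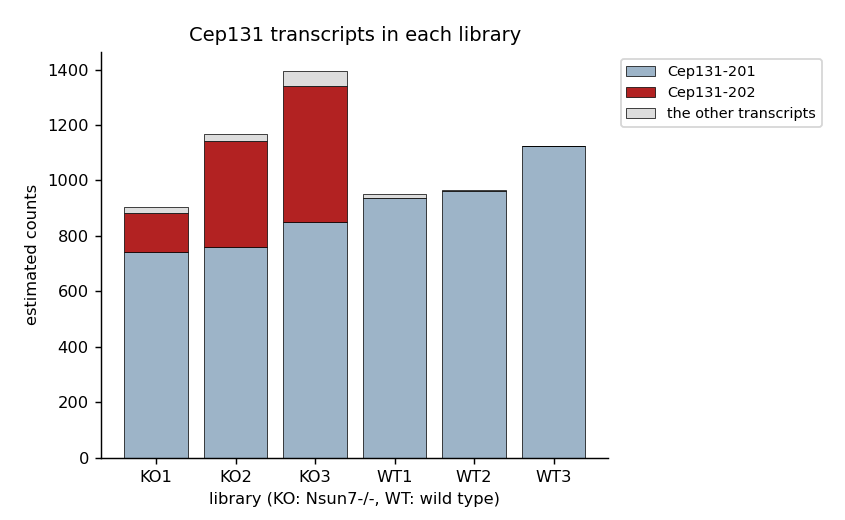
Estimated counts of Cep131 in each library (stacked bars from 0), divided into Cep131-201, Cep131-202 and the other transcripts. Cep131-202 holds 142.2 to 491.4 counts in the 3 Nsun7-/- libraries and 0 in the 3 wild-type libraries.

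The promoters of 30 of the 35 genes were matched by symbol in RefSeq sequences of GRCm38.p6, from 250 bases before to 50 after the start of each gene. The X-box, which RFX factors bind in genes of cilia, was searched as GTTNCC, 1 to 3 of any base, then GGNAAC, a pattern that reads the same on both strands. It was present in 2 of the 30 promoters (6.67%), against 0.903% of 27025 genes. They are shown as the members that carry the full motif, which is in capitals:
Bbs7, within chr3:36613340-36613639, minus strand: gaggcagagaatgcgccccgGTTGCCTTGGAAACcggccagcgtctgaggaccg
Ift57, within chr16:49699044-49699343, plus strand: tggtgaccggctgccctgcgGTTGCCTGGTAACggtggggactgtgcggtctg
The motif ends 108 bases before the start in Bbs7 and 48 bases before it in Ift57. One arm of the motif, GTTGCC on either strand and overlapping the full motif where both occur, was present in 13 of the 30 promoters (43.3%), against 14.1% of all genes. A match describes the sequence alone, and neither of these 2 genes passed the gene test, at log2 fold changes of 0.03 for Bbs7 and -0.01 for Ift57.

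The 35 genes lie on 16 chromosomes, 4 of them (Clip1, Ift22, Ift81 and Ift172) on chromosome 5, which also carries Nsun7. Those 4 had log2 fold changes of 0.09, -0.01, 0.09 and 0.10. In GENCODE M21, 14 of the 35 overlap another annotated gene, 13 of them a gene on the other strand and 7 a gene on the same strand. The 14 are Hook1, Spef1, Clip1, Cep131, Ift140, Ift57, Ift74, Ift80, Ift81, Ift88, Bbs1, Bbs4, Bbs9 and Bbs12. Overlap was read from whole gene spans, introns included, and whether any exon bases are shared was not tested. The strand setting of the counting is not given in the sources used here. Where exon bases are shared, reads of the overlapping gene may not be told apart from those of the member.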

How the data were processed

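RNA depleted of ribosomal and globin transcripts went into NEBNext Ultra II RNA libraries, per the labels' protocols. The authors deposited estimated counts of genes as whole numbers, TPM for the same genes, and estimated counts and TPM per transcript for each library. Per the submitters' processing notes these came from kallisto 0.50.1 with mm39. Which annotation release and strand setting they used is not given in the sources used here. Member transcripts were named through GENCODE M21, and their sums lay within 1 count of the gene counts for 33 of 35 genes; Lrguk (97.6% to 99.2%) and Ift46 (66.3% to 75.7%) fell short. The tables held 0 columns of other samples.

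Counts, rounded for transcripts, went into edgeR 4.0.16 (R 4.3.3): TMM, filterByExpr by genotype (minimum count 10, minimum total 15) and the robust quasi-likelihood test with genotype as the sole term, adjusted by Benjamini-Hochberg over all tested genes at 0.05. SEs are the log2 fold change over the square root of F. Alternatives used DESeq2 1.42.0 and limma 3.58.1, the latter also on log2(TPM + 1) and log2(TPM + 0.1). The edgeR tests were also run on simulated counts without a deviating library such as KO3, and those results are not reported here. With 3 against 3 an exact permutation test cannot go below 0.1, so none is given. The biological coefficient of variation was 14.9%.

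The members and lists were chosen with earlier results of these data known. Values per library are given for the 2 members of smallest p and the most abundant member of each sub-group, and for members without overlap; for other lists, the 2 genes of smallest p are named, except 1 that is not reported here. Meig1 and Cep131 are given in more detail after their values were seen. Mouse numbers are not stated to pair mice; same-numbered libraries deviated together with correlations of 0.177, -0.005 and 0.199, so they were not treated as pairs.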

Additional observations from a re-analysis of the deposited data

How the results depend on the processing

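In the gene test 0 of the 35 genes passed under each of the 17 alternatives run, and the lowest adjusted p of any member in them was 0.191. The count over all genes, 119, was 203 with DESeq2, 180 without a filter on low counts, 68 on log2(TPM + 0.1), 61 on log2(TPM + 1) and 39 on log2(TPM + 1) without Rmrp, and ran from 67 to 166 when each library was left out in turn (67 without WT1, 166 without KO1). The higher and lower calls were 49 and 70 on counts, 48 and 20 on log2(TPM + 0.1), and 44 and 17 on log2(TPM + 1). With the mouse number as a replicate block 331 genes passed, and 0 of the 35 members; the numbers are not known to pair mice.

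TPM scaling moved the median of all genes to 0.30 with a pseudocount of 0.1, 0.24 with 1, and 0.10 with 1 and without Rmrp. In the same order the medians were 0.334, 0.313 and 0.149 for all 35 genes, 0.339, 0.298 and 0.154 for the manchette, 0.347, 0.345 and 0.166 for IFT-A, and 0.293, 0.278 and 0.110 for IFT-B. With pseudocounts 0.1 and 1 they were 0.290 and 0.278 for dynein-2 and 0.236 and 0.223 for the BBSome. Leaving out each library in turn, the median ran from -0.056 to 0.075 for IFT-B and from -0.057 to 0.083 for the BBSome; without both WT1 and KO3 that of the BBSome was -0.076.

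Of 272 values under an alternative, for the 16 members chosen by smallest p, level or no overlap, 30 had the other sign and 0 passed. With pseudocounts 0.1 and 1 these were Bbs1 (0.096 and 0.095), Dync2li1 (0.231 and 0.220), Ift27 (0.106 and 0.105), Ift43 (0.161 and 0.159), Iqcn (0.214 and 0.213) and Stk36 (0.175 and 0.174). Without Rmrp they were Dync2li1 (0.050) and Iqcn (0.033). Ift140 was -0.011 with DESeq2, -0.006 with RLE factors, -0.001 without a filter, and between -0.036 (without KO1) and 0.056 (without KO3) when each library was left out, below 0 also without KO2, WT1 or WT2. Bbs9 was -0.111 without KO2 and -0.144 without WT1, and without KO3 Dync2h1 was -0.021. Bbs5 ran from -0.083 without KO3 to 0.362 without KO1. Without both WT1 and KO3, Bbs10 was -0.045, Bbs5 -0.084, Bbs9 -0.069, Dync2h1 -0.059 and Ift80 -0.014. The cause was not tested.

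The transcript test called 0 member transcripts under RLE factors, no filter, the block and each library left out and 2 with DESeq2, an alternative chosen after seeing the data; the fitted log2 fold change of Cep131-202 was 11.28 with edgeR and 10.61 with DESeq2, values that depend on the prior count because wild type is at 0. The X-box count of 2 promoters was 13 with one arm of the motif, GTTGCC, alone. Depth limited Bbs12 most: it rested on 22 to 76 counts per library, and its interval was the widest of the 35.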
